A study of Mus musculus with 4 samples.

Results

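The genes of the proteasome and of the immunoproteasome were compared between mouse cDNT cells labelled Tbx21-KO and wild-type (WT) cDNT cells. Members were all protein-coding genes of the annotation whose symbol starts with Psma, Psmb, Psmc, Psmd, Psme, Psmf or Psmg followed by a digit. The rule goes by name and uses no measured value, but it was chosen with earlier results of these data known. The annotation holds 50 such genes, and 48 of them are among the 24768 genes of the deposited table. Psmc2 and Psme2 are not analysed here. The immunoproteasome group is therefore represented by Psmb8, Psmb9, Psmb10 and Psme1, 4 of its 5 genes, against 44 other members.

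Each group had 2 libraries of mRNA, and the labels of both groups name cDNT cells. By the title of the series these are T cells of a double-negative kind, which means without the CD4 and CD8 coreceptors. The Tbx21-KO libraries also held myeloid transcripts, as given below, and whether each group holds only T cells was not tested. The letter c in cDNT is not explained in the labels. The cells of the first group carry the label Tbx21-KO while the design text speaks of a knockdown, and neither says how the gene was targeted or in which cells. Strain, age and any treatment of the cells are not given in the labels, and no label ties the 2 libraries of a group to different mice or cultures. The p-values therefore speak only of the scatter among 4 libraries, part or all of which may be technical.

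The proteasome is the protease complex that degrades ubiquitin-tagged proteins. Its barrel-shaped 20S core has outer alpha rings (Psma genes) and inner beta rings (Psmb genes), and the protease sites sit in the beta subunits encoded by Psmb5, Psmb6 and Psmb7. A 19S cap with ATPases (Psmc genes) and further subunits (Psmd genes) recognises, unfolds and feeds in the substrates. In lymphocytes and in cells exposed to interferon gamma, newly made cores can take up the inducible subunits Psmb8, Psmb9 and Psmb10 in place of Psmb5, Psmb6 and Psmb7, which gives the immunoproteasome, and the PA28 cap of Psme1 and Psme2 can replace the 19S cap. Immunoproteasomes produce many of the peptides that MHC class I molecules show to CD8 T cells.

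Values are FPKM, which the authors computed as fragments per kilobase of gene, relative to the size of the library. Tests were made with limma on log2(FPKM + 1) over the 11013 genes with a mean of at least 1 FPKM, and a gene is called higher or lower at a Benjamini-Hochberg adjusted p under 0.05. A log2 fold change is the Tbx21-KO mean minus the WT mean on this scale, which slightly understates the change of low genes. The libraries hold an implied 23342603 to 24967028 reads, and each tested member had between 245 and 26244 reads in a library. Tbx21 itself, which encodes the transcription factor T-bet, was at 2.35 ± 0.08 FPKM in Tbx21-KO and at 12.5 ± 1.09 FPKM in WT (SD, n = 2 each, limma adjusted p = 8.21e-05). The Tbx21-KO libraries also held myeloid transcripts: all 14 granulocyte genes of a marker list were higher, with summed levels of 10898 and 11197 FPKM in Tbx21-KO and 11.8 and 15.4 FPKM in WT, where Csf3r was at 0 in 1 library. Of 6 macrophage and monocyte markers tested all 6 were higher (summed over the 8 in the table, 445.4 and 475.8 FPKM in Tbx21-KO, 180.2 and 181.3 FPKM in WT). Of 7 genes tested from a dendritic cell list 5 were higher and none lower (sums 154.6 and 160.3 FPKM, against 52.4 and 58.0 FPKM in WT). The 5 were Batf3, H2-Aa, H2-Ab1, H2-Eb1 and Cd74. Itgax was not called, with means of 1.22 FPKM in Tbx21-KO and 1.58 FPKM in WT. Xcr1 was not called either, with means of 0.99 FPKM in Tbx21-KO and 1.43 FPKM in WT. Clec9a was not tested, at 0.0130 and 0.0379 FPKM in Tbx21-KO and 0 in both WT libraries. Both B cell markers tested were higher (sums 75.8 and 72.0 FPKM, against 39.1 and 41.2 FPKM in WT). Of 19 T cell genes 14 were lower and 1 higher, with summed levels of 1489 and 1522 FPKM in Tbx21-KO and 2094 and 2196 FPKM in WT. The higher myeloid, dendritic-list and B cell transcripts and the lower T cell transcripts move with every result below. Their part in the results was not tested. A lower value can mean fewer cells of a type or less RNA per cell, which bulk samples cannot tell apart.

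At the deposited scaling most proteasome genes were somewhat lower in Tbx21-KO, a direction that turned when libraries were scaled to T cell genes, and Psmb9 was higher under either scaling. With the deposited values, 28 of the 45 members tested were lower, 2 were higher and 15 were not called, beside 23% lower and 30.1% higher among all genes tested. Without the first Tbx21-KO library 1 member was higher and 16 were lower, beside 21% higher and 16.3% lower among all genes. The lower members were at 68.5% to 89.9% of their WT mean. The median log2 fold change was -0.22 over the members and 0.04 over all genes tested. The members summed to 2338 and 2386 FPKM in Tbx21-KO and to 2657 and 2773 FPKM in WT, which is 0.749% and 0.731% of all FPKM in Tbx21-KO against 0.862% and 0.891% in WT. The 14 granulocyte genes took 3.49% and 3.43% of all FPKM in the Tbx21-KO libraries. In 32 of the 45 members both Tbx21-KO libraries lay below both WT libraries and in 5 both lay above, while the same held for 35.3% and 43.7% of all genes tested.

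The direction of these small changes depended on how the libraries were scaled. After quantile normalization 2 members were higher and 32 lower (22.1% and 34.5% of all genes), and after median-of-ratios scaling 2 were higher and 30 lower (27.4% and 26.5% of all genes). When the libraries were instead rescaled so that the T cell genes kept 1 geometric mean, 34 members were higher and none lower (limma, adjusted p under 0.05), beside 75.5% higher and 4.39% lower among all genes, and the median was 0.28 over the members and 0.47 over all genes. At an unadjusted p under 0.05 the limma counts with the T cell list were also 34 and 0. The count test on recovered reads (limma-voom), run without that scaling, called 2 members higher and 30 lower at an adjusted p under 0.05. Among the 11005 genes in that test 3733 were higher and 2778 lower. At an unadjusted p under 0.05 limma-voom gave 4 members higher and 30 lower. Psmc5 and Psme3 were the members still below 0 with the T cell list, at -0.04 and -0.03. Relative to the median of all genes, the members' median was lower by each scaling, by -0.25 with the deposited values, -0.26 after median-of-ratios scaling, -0.14 after quantile normalization and -0.19 with the T cell list scaling. At the deposited scaling, among 2716 genes with a mean of at least 20 FPKM, 39.5% were lower and 25.2% higher with a median of -0.06, and 28 of the 38 members among them were lower with a median of -0.23. Of the 45 members, 32 were below the median of all genes under each of the 4 scalings and 7 were above it under each: Psma6, Psmb8, Psmb9, Psmc3ip, Psmd5, Psmd10 and Psme4.

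**Figure D1:**
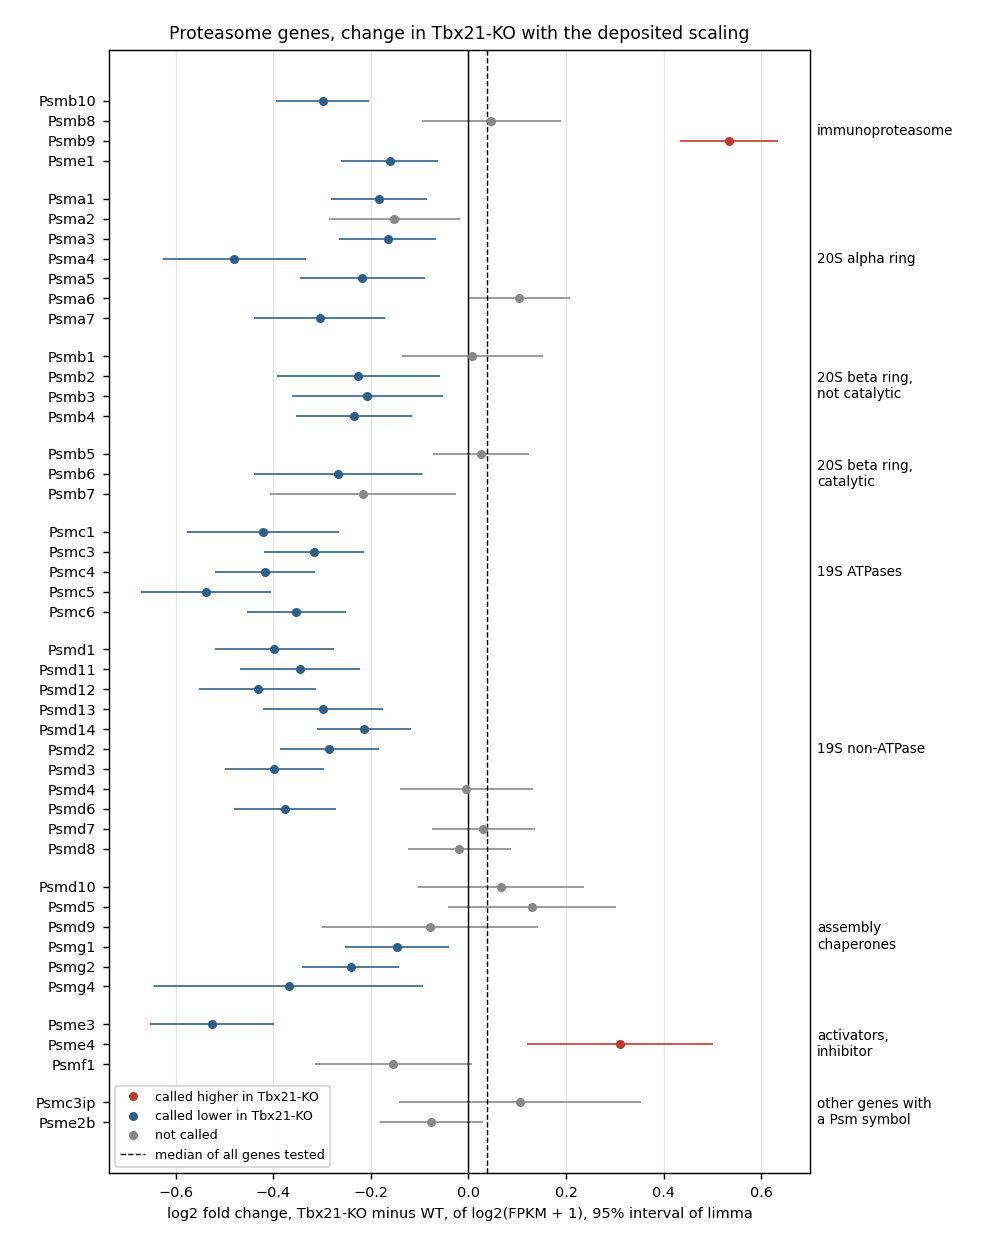
Log2 fold change of each tested proteasome gene (Tbx21-KO minus WT, x axis, in log2 units of FPKM + 1) with its 95% limma interval, by role. With the deposited scaling shown, the 28 members called lower lie left of 0 (26 of them turn positive with the T cell list scaling), and Psmb9 at 0.53 and Psme4 at 0.31 are called higher. The dashed line is the median of all genes tested, 0.04.

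**Figure D2:**
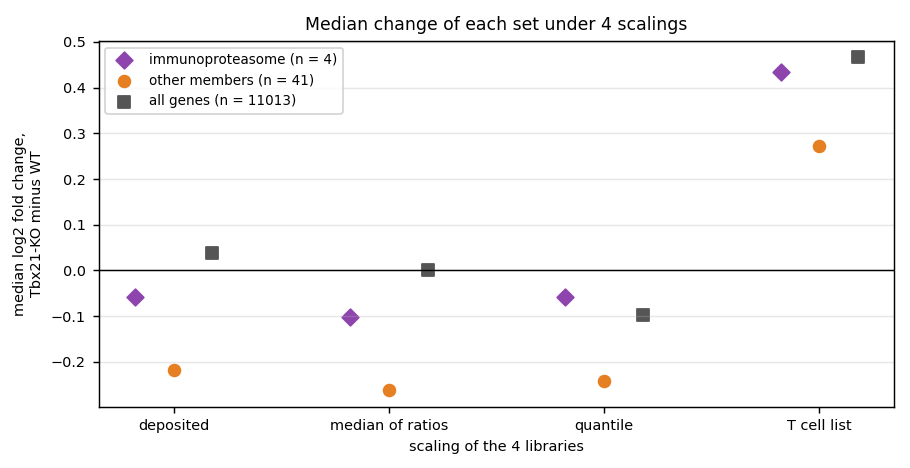
Median log2 fold change (y axis, log2 units) of 4 immunoproteasome genes, 41 other members and all 11013 genes under 4 scalings of the libraries (x axis). The other members lie below all genes under each scaling, and the medians of both proteasome groups turn positive with the T cell list scaling, where that of all genes is 0.47.

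The inducible subunits of the core did not move together. Psmb9, which encodes the inducible subunit that replaces the product of Psmb6, was at 57.7 and 57.6 FPKM in the Tbx21-KO libraries and at 38.8 and 40.2 FPKM in the WT libraries. Both Tbx21-KO libraries were far above both WT libraries, and the libraries of each group lay close together. The log2 fold change was 0.53 (SE 0.04, limma adjusted p = 0.000505), or 146% of the WT mean, and Psmb9 was the only member called higher in all 15 other fits, with values from 0.49 to 1.02. Psmb9 lies on the minus strand of chromosome 17 (GRCm38, 34181987 to 34187764), and 212 bases at its start overlap Tap1 on the other strand, which is not analysed here. No source used here says whether counting used strand, and reads of that overlap cannot be assigned.

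Psmb8, the inducible counterpart of Psmb5, lies close to Psmb9 in the MHC region (chromosome 17, 34197721 to 34201454). It was at 37.1 and 38.8 FPKM in Tbx21-KO and at 38.2 and 35.3 FPKM in WT. The groups overlapped, and the log2 fold change was 0.05 with a 95% interval from -0.10 to 0.19 (limma adjusted p = 0.503). With the T cell list scaling Psmb8 was called higher, at 0.53. Psmb10, the inducible counterpart of Psmb7 (chromosome 8, 105935735 to 105938444), was at 64.9 and 66.6 FPKM in Tbx21-KO and at 81.5 and 80.6 FPKM in WT. Here both Tbx21-KO libraries were below both WT libraries, with a log2 fold change of -0.30 (limma SE 0.04, adjusted p = 0.00263) that turned to 0.20 with the T cell list scaling. Psme1, which encodes the alpha chain of the PA28 cap (chromosome 14, 55578123 to 55581529), was at 99.3 and 101.7 FPKM in Tbx21-KO and at 110.9 and 114.2 FPKM in WT. It was lower in both Tbx21-KO libraries, by -0.16 on the log2 scale (SE 0.04, limma adjusted p = 0.0213). The call of Psme1 was lost without a variance trend and on leaving out WT 2, Tbx21-KO 1 or Tbx21-KO 2, and with the T cell list scaling its value was 0.33. Of the 4 immunoproteasome genes 1 was thus higher, 2 lower and 1 not called, with a median of -0.06, beside 1 higher, 26 lower and 14 not called of the 41 other members tested, with a median of -0.22. Under the T cell list scaling all 4 immunoproteasome genes and 30 of the other 41 were called higher, and 0 lower. Among all genes tested 30.1% were higher and 23% lower at the deposited scaling, and 75.5% and 4.39% with the T cell list.

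Of the constitutive catalytic subunits, whose places the inducible ones take, 1 of 3 was called lower with the deposited scaling, and by the T cell list all 3 were higher. Beside these counts, 23% of all genes tested were lower and 30.1% higher at the deposited scaling, and 4.39% and 75.5% by the T cell list. Psmb6 (chromosome 11, 70525367 to 70527858) was at 54.6 and 54.9 FPKM in Tbx21-KO and at 62.2 and 70.3 FPKM in WT. The WT libraries differed from each other, but both were above the Tbx21-KO libraries. Its log2 fold change was -0.27 (SE 0.07, limma adjusted p = 0.0239), a call lost with no filter on low values and on leaving out either Tbx21-KO library, and turned to 0.22 with the T cell list scaling. Psmb7 was at 21.7 and 23.8 FPKM in Tbx21-KO and at 25.3 and 28.0 FPKM in WT, below WT in both libraries yet not called (-0.22, SE 0.07, limma adjusted p = 0.0596). Psmb5 was at 32.9 and 33.1 FPKM in Tbx21-KO and at 32.8 and 32.0 FPKM in WT. Its groups nearly touched without overlap, and its log2 fold change was 0.03 with a 95% interval from -0.07 to 0.12.

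The ratio of an inducible subunit to its counterpart within a library is untouched by any scaling factor. The ratio of Psmb9 to Psmb6 was 1.06 and 1.05 in the Tbx21-KO libraries, against 0.623 and 0.572 in the WT libraries. The groups were well apart, with a log2 difference of 0.82 that ran from 0.76 to 0.88 on leaving out each library. The ratio of Psmb8 to Psmb5 was 1.13 and 1.17 in Tbx21-KO and 1.16 and 1.10 in WT. That of Psmb10 to Psmb7 was 2.99 and 2.79 in Tbx21-KO and 3.23 and 2.88 in WT. Both of these ratios overlapped between the groups, with log2 differences of 0.02 and -0.08. The ratio of Psme1 to Psme3, which encodes the subunit of the nuclear PA28 cap, was 1.54 and 1.46 in Tbx21-KO and 1.16 and 1.16 in WT, a log2 difference of 0.37. Psme3 belongs to another cap and is no counterpart in the sense used for the core. Both genes were called lower at the deposited scaling, Psme1 by -0.16 and Psme3 by -0.53. Psmb9 was also set against Psmb8, a pair chosen after the values were seen: the ratio was 1.55 and 1.49 in Tbx21-KO and 1.02 and 1.14 in WT, a log2 difference of 0.50. An exact two-sided permutation test of 2 libraries against 2 cannot go below p = 0.33, and it gave 0.33 for the 3 ratios that do not overlap and 0.67 for the other 2. The size of a ratio rests on the gene lengths behind the FPKM, for example 3381 exon bases annotated for Psmb8 and 899 for Psmb5, so only its difference between groups is read here.

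**Figure D3:**
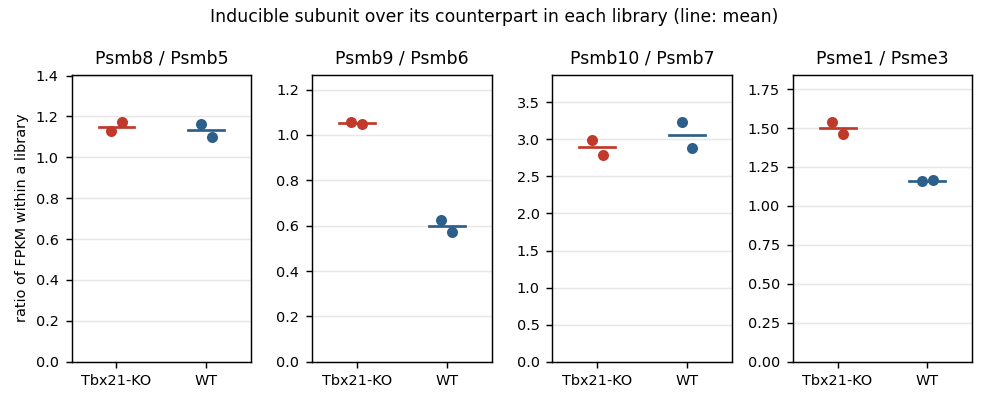
Ratio of FPKM of an inducible core subunit to its counterpart, and of Psme1 to Psme3 of another cap, in each library (y axis, linear from 0). Tbx21-KO is left and WT right, with a line at each mean. Psmb9 to Psmb6 and Psme1 to Psme3 do not overlap between groups, whereas Psmb8 to Psmb5 and Psmb10 to Psmb7 do.

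The start regions of Psmb9 and of its counterpart Psmb6 are shown because these genes changed differently. They are RefSeq sequences of GRCm38.p6 from 250 bases before to 50 after the RefSeq start of the gene, 5′ to 3′ along the gene, at chr17:34187281-34187580 (minus strand) for Psmb9 and chr11:70525107-70525406 (plus strand) for Psmb6. For Psmb9 this start lies 434 bases inside the gene as GENCODE annotates it, so its window is wholly within that gene. Capitals mark matches, on either strand, of the motifs reported here: a pair of GAAA tetramers with 2 bases between them for the core of the interferon response element bound by IRF factors, TGACNNNGC for the core of the antioxidant response element bound by NFE2L1 and NFE2L2, AGGTGTGA for the T-box element, and CCAAT for the box bound by NF-Y.
Psmb9: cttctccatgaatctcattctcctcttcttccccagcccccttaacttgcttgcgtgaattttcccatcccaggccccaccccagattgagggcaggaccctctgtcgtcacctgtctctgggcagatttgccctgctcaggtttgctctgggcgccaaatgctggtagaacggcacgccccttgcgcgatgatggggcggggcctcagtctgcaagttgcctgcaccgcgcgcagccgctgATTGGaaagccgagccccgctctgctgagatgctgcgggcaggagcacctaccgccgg
Psmb6: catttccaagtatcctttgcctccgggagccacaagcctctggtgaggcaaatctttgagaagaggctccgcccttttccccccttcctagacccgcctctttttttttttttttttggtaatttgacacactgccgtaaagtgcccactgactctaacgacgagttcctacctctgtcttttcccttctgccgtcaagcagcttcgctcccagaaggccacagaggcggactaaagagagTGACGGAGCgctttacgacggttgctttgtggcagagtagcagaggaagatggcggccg
In these windows Psmb9 held a reverse CCAAT box at base 243 and Psmb6 an antioxidant response core at base 242, counted from the window's first base. Windows were found for 40 of the 48 members. The interferon response letters were in 5 of these 40 genes (12.5%, against 3.99% of 27025 genes), among them Psme1, and the antioxidant response letters in 6 of 40 (15%, against 14.0%). CCAAT was in 14 of 40 (35%, against 41.1%), and the T-box letters in 1 of 40, Psmd13 (2.5%, against 1.48%). A match of letters is a description of the sequence and shows no binding.

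Of 16 genes of the 19S cap tested, 13 were lower at the deposited scaling (12 without Tbx21-KO 1) and 0 with the T cell list. All 5 ATPase genes measured, which encode the ring that unfolds substrates, were lower with the deposited scaling, with a median log2 fold change of -0.42. Under the T cell list scaling 2 of them were called higher and 0 lower. Beside these counts and those by role below, 30.1% of all genes were higher and 23% lower at the deposited scaling. With the T cell list these shares were 75.5% and 4.39%. Psmc5 had the largest fall of all members, at 53.9 and 58.0 FPKM in Tbx21-KO and at 83.3 and 80.0 FPKM in WT. Its groups were widely separated, with 68.5% of the WT mean left in Tbx21-KO and a change of -0.54 (SE 0.05, limma adjusted p = 0.0012), against -0.04 with the T cell list scaling. Psmc1 was at 74.4 and 77.9 FPKM in Tbx21-KO and at 97.5 and 107.3 FPKM in WT (-0.42, SE 0.06, limma adjusted p = 0.00415, and 0.07 with the T cell list). Psmc4 was at 45.5 and 45.7 FPKM in Tbx21-KO and at 60.0 and 62.4 FPKM in WT (-0.42, SE 0.04, limma adjusted p = 0.00115, and likewise 0.07). Both genes thus lay apart between groups at the deposited scaling. Psmc6 and Psmc3 had changes of -0.35 and -0.32, which turned to 0.14 and 0.18 with the T cell list. The ATPases took 13.3% of the members' summed FPKM in both Tbx21-KO libraries, against 15.6% and 15.2% in WT, a share that no scaling factor of a library moves. The immunoproteasome genes took 11.1% in both Tbx21-KO libraries, against 10.1% and 9.75% in WT. Without Psmb9 the other 3 took 8.61% and 8.68% in Tbx21-KO, against 8.68% and 8.30% in WT.

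Of the 11 other 19S subunits, 8 were lower, 0 higher and 3 not called, with a median of -0.30 (6 higher and 0 lower by the T cell list). Psmd12, a subunit of the lid, was at 37.5 and 39.3 FPKM in Tbx21-KO and at 51.0 and 53.3 FPKM in WT, with no overlap between groups (-0.43, SE 0.05, limma adjusted p = 0.00171, and 0.06 with the T cell list). Psmd14, which encodes the deubiquitinase that frees substrates of ubiquitin, changed by -0.21 (0.28 with the T cell list), and the scaffold subunit genes Psmd1 and Psmd2 by -0.40 and -0.29 (0.08 and 0.21). Psmd3, Psmd6, Psmd11 and Psmd13 changed by -0.40, -0.38, -0.35 and -0.30 (0.09, 0.11, 0.13 and 0.19 with the T cell list). The 3 not called were Psmd4, which encodes a ubiquitin receptor, Psmd7, the partner of Psmd14, and Psmd8. Their groups overlapped, and their changes were -0.0045, 0.03 and -0.02. The products of Psmd14 and Psmd7 form a pair, and the 95% intervals of their changes were -0.31 to -0.12 for Psmd14 and -0.08 to 0.14 for Psmd7.

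In the alpha ring of the core, 5 of 7 genes tested were lower and 0 higher, with a median of -0.18 (6 higher and 0 lower by the T cell list). Without Tbx21-KO 1 only Psma4 was lower, and without Tbx21-KO 2 the count was 3. Psma4 was at 52.0 and 56.5 FPKM in Tbx21-KO and at 74.1 and 77.9 FPKM in WT, a clear gap, with a change of -0.48 (SE 0.06, limma adjusted p = 0.0023) that was 0.01 with the T cell list. Psma7, Psma5, Psma1 and Psma3 changed by -0.31, -0.22, -0.18 and -0.17 (0.19, 0.28, 0.31 and 0.32 with the T cell list). Psma2 was not called, at -0.15, nor was Psma6, at 119.1 and 121.3 FPKM in Tbx21-KO and 109.4 and 114.3 FPKM in WT. In the beta ring, Psmb2, Psmb3 and Psmb4, which lack a protease site, changed by -0.23, -0.21 and -0.24, while Psmb1, the most abundant member, overlapped between groups, at 226.5 and 228.2 FPKM in Tbx21-KO and 216.0 and 236.7 FPKM in WT (with the T cell list all 4 were higher). The 3 calls were lost without Tbx21-KO 1, and those of Psmb2 and Psmb3 also without WT 2, without Tbx21-KO 2, with no filter on low values and with no variance trend. Alpha subunits sit in their ring in equal numbers, and their genes' changes ranged from -0.48 to 0.10.

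**Figure D4:**
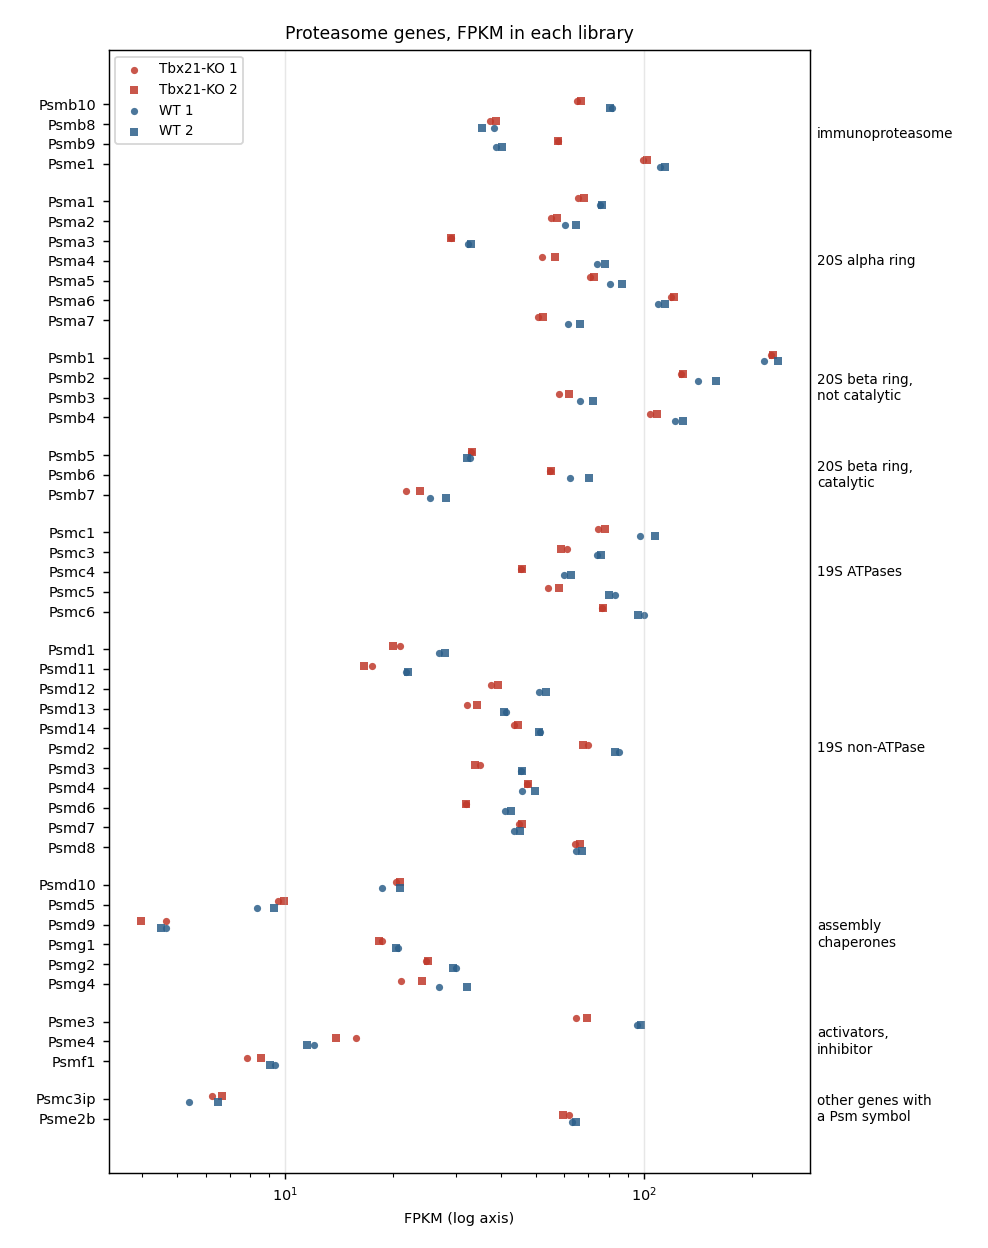
FPKM of each tested member (x axis, log scale) in the 2 Tbx21-KO libraries (red, upper) and the 2 WT libraries (blue, lower), by role. Levels run from about 4.31 FPKM for Psmd9 to 227.4 FPKM for Psmb1 as Tbx21-KO means. At this deposited scaling the red points lie left of the blue ones in 32 of 45 members, among them 13 of 16 19S genes. They lie right in 5, Psma6, Psmb5, Psmb9, Psmd5 and Psme4, of which Psmb9 and Psme4 are called. The direction of 26 of the 28 lower members flips with the T cell list.

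Of the genes for other caps and for an inhibitor of the core, Psme3 was lower, Psme4 higher and Psmf1 not called. Psme3 (chromosome 11, 101316213 to 101323537), whose product caps the core in the nucleus, was at 64.7 and 69.5 FPKM in Tbx21-KO and at 95.8 and 98.1 FPKM in WT. The groups were far apart, with a log2 fold change of -0.53 (limma SE 0.05, adjusted p = 0.00111), or 69.2% of WT, against -0.03 with the T cell list. Psme4 (chromosome 11, 30771726 to 30880361), which encodes the large activator PA200, was at 15.8 and 13.9 FPKM in Tbx21-KO and at 12.02 and 11.5 FPKM in WT. Both Tbx21-KO libraries were above WT, with a log2 fold change of 0.31 (limma SE 0.07, adjusted p = 0.021). The call of Psme4 was lost with no filter on low values and on leaving out WT 2 or Tbx21-KO 1, and its value ran from 0.22 to 0.78 over all other fits. Psmf1, which encodes the proteasome inhibitor PI31, was at 7.82 and 8.57 FPKM in Tbx21-KO and at 9.38 and 9.08 FPKM in WT and was not called (-0.15, limma adjusted p = 0.0925).

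Of 6 assembly chaperone genes tested, 3 were lower and 0 higher, with a median of -0.11 (5 higher and 0 lower by the T cell list). The shares over all genes were 23% lower and 30.1% higher, and 4.39% and 75.5% by the T cell list. Psmg4, Psmg2 and Psmg1, whose products help build the core, changed by -0.37, -0.24 and -0.15 (0.11, 0.24 and 0.33 with the T cell list). The call of Psmg2 held in all 14 fits beside the T cell list, while those of Psmg4 and Psmg1 were lost in 6 and 7 other fits. Psmd5, Psmd9 and Psmd10, which assist assembly of the 19S base, were not called, and their values were 0.13, -0.08 and 0.07. At an unadjusted p under 0.05 no further member was higher in limma (2 of 45), and limma-voom gave 4, adding Psma6 and Psmd5. Psmg3 stayed under the filter, at 0.829 and 0.777 FPKM in Tbx21-KO and 0.568 and 0.759 FPKM in WT. So did the tissue-restricted core subunits: Psma8, of the testis, was at 0.329 and 0.221 FPKM in Tbx21-KO and 0.0710 and 0.0245 FPKM in WT, and Psmb11, of thymus epithelium, was at 0.0706 and 0.0490 FPKM in Tbx21-KO and listed at 0 in both WT libraries. These values of Psmb11 stand for 8 and 6 reads.

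Psmc3ip and Psme2b match the naming rule without being standard proteasome subunits. Psmc3ip, a meiotic recombination factor, was at 6.24 and 6.68 FPKM in Tbx21-KO and 5.40 and 6.52 FPKM in WT and was not called (0.11, limma adjusted p = 0.395). The transcript of Psme2b is 99.4% identical to that of Psme2 over 794 aligned bases, so reads of the pair can be split between them and its level is uncertain. Psme2b was at 61.7 and 59.4 FPKM in Tbx21-KO and 63.0 and 64.8 FPKM in WT and was not called (-0.08, limma adjusted p = 0.176). In the annotation 24 of the 48 members overlap another gene, 13 of them a protein-coding one. Where the other gene is on the opposite strand, reads of the overlap cannot be told apart if counting ignored strand. Some overlaps are on the same strand, such as that of Psme2b with Gm12185 (837 shared bases). There strand alone cannot separate reads of the shared bases.

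Genes that work with the proteasome without a Psm symbol were counted from lists. Of 23 partners and regulators, 9 were lower and 2 higher with the deposited scaling, with a median of -0.08. By the T cell list 19 were higher and 0 lower. Over all genes 23% were lower and 30.1% higher, and 4.39% and 75.5% by the T cell list. Rad23b, which shuttles ubiquitinated proteins to the proteasome, was at 39.6 ± 0.69 FPKM in Tbx21-KO and 57.7 ± 0.30 FPKM in WT (SD, n = 2 each), a change of -0.53 that was -0.04 with the T cell list. Adrm1, a ubiquitin receptor of the cap, Vcp, the segregase that extracts ubiquitinated proteins, and Zfand2a, a stress-induced partner of the cap, changed by -0.45, -0.38 and -0.36 (0.03, 0.12 and 0.11 with the T cell list). Sem1, which encodes a small subunit of the lid, and Zfand5, a zinc finger protein that binds the proteasome, were higher, by 0.49 and 0.56. Sem1 was at 25.6 ± 1.24 FPKM in Tbx21-KO and 17.9 ± 1.97 FPKM in WT (SD, n = 2 each), in the opposite direction to the lid genes called above, and its call was lost without Tbx21-KO 2.

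Of 14 genes for factors that control proteasome genes, 3 were higher, 4 lower and 7 not called, with a median of -0.01. By the T cell list 11 were higher and 2 lower. Over all genes 30.1% were higher and 23% lower, and 75.5% and 4.39% by the T cell list. Nfe2l1, whose product raises proteasome genes when proteasome activity drops, was at 27.4 ± 0.18 FPKM in Tbx21-KO and 28.0 ± 0.20 FPKM in WT (SD, n = 2 each, limma adjusted p = 0.552). With the T cell list scaling Nfe2l1 was called higher, at 0.45. It was named after its value was seen. Irf1, which activates immunoproteasome genes, was higher by 0.38, and Irf8, another factor of that family, changed by -0.82 (0.88 and -0.33 with the T cell list). Nfya and Nfyc, subunits of NF-Y, went apart, at 0.50 and -0.51 (0.95 and -0.03 with the T cell list). Foxo1, a factor of naive and memory T cells, changed by -0.93 (-0.47 with the T cell list).

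Of 18 genes of MHC class I presentation, 10 were higher, 4 lower and 4 not called, with a median of 0.19 (16 higher and 1 lower by the T cell list), beside 30.1% higher and 23% lower among all genes (75.5% and 4.39% by the T cell list). On leaving out either Tbx21-KO library fewer of the 18 were called higher or lower, as was so among all genes. Their median was 0.19 without Tbx21-KO 2 and 0.19 without Tbx21-KO 1, beside 0.04 and 0.03 over all genes. B2m, the light chain of class I molecules, was at 4861 ± 107 FPKM in Tbx21-KO and 3579 ± 102 FPKM in WT (SD, n = 2 each), a change of 0.44 (SE 0.06, limma adjusted p = 0.00325) whose call was lost with no filter on low values and without Tbx21-KO 2. H2-T23, a nonclassical class I heavy chain, was higher by 0.82, and Ifngr2, a chain of the interferon gamma receptor, by 1.47. Erap1, which trims peptides in the endoplasmic reticulum, and Tapbpl, an editor of class I peptides, changed by -0.48 and -0.84 (-0.0041 and -0.35 with the T cell list). The heavy chain genes share sequence, so their single values are uncertain. Tap2, which carries the peptides into that compartment and lies beside Psmb8, was named after its value was seen and was not called, at 30.4 ± 0.40 FPKM in Tbx21-KO and 29.6 ± 1.82 FPKM in WT (SD, n = 2 each). With the T cell list scaling Tap2 was called higher, at 0.53. Ifng, which encodes the cytokine that induces the immunoproteasome, averaged 22.99 ± 0.75 FPKM in Tbx21-KO and 59.8 ± 11.9 FPKM in WT (SD, n = 2 each, limma adjusted p = 0.00151). The log2 fold change of Ifng was -1.33, and -0.84 with the T cell list. It too was chosen after its value was seen.

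**Figure D5:**
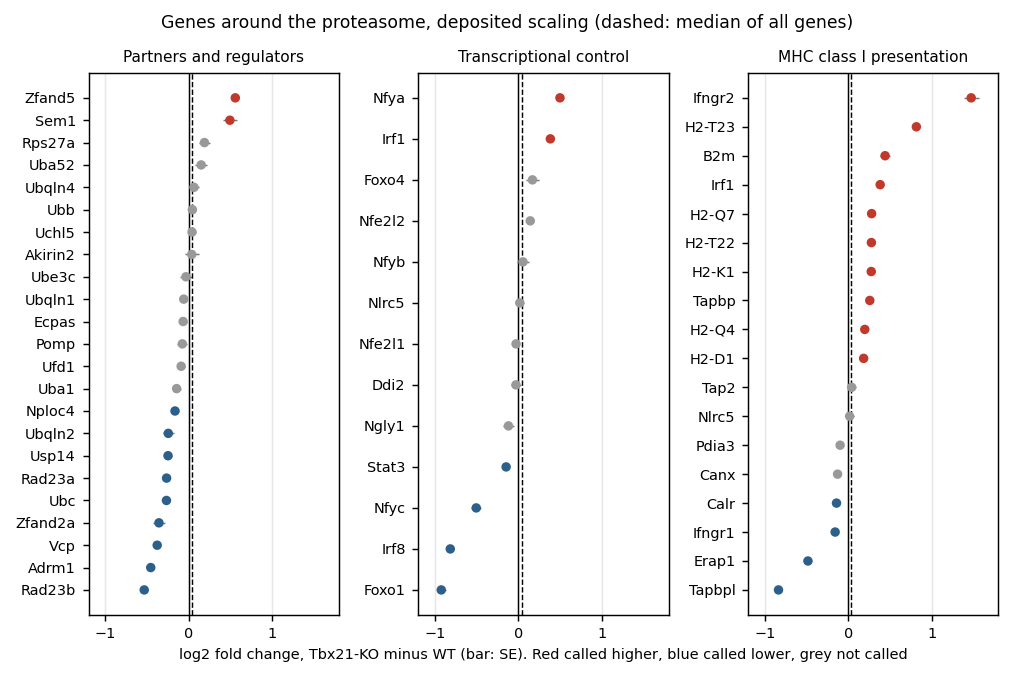
Log2 fold change (Tbx21-KO minus WT, x axis, log2 units) with SE of 23 partners and regulators, 13 of the 14 genes of transcriptional control and 18 genes of MHC class I presentation. Irf1 and Nlrc5 stand in both of the last lists, and with the deposited scaling 10 genes of class I presentation were called higher (red) and 9 partners lower (blue, 0 with the T cell list scaling).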

How the data were processed

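RNA of 4 libraries, 2 of Tbx21-KO and 2 of WT cDNT cells, was made into mRNA libraries per the labels' protocols. The deposited FPKM table holds the authors' values per gene. Per the submitters' processing notes the builds were GRCm38 and mm10. Aligner and counting tool: not given in the sources used here. A broken last row was left out. IDs were matched to GENCODE M21 (24720 of 24768).

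For each gene of mean 1 FPKM or more, limma 3.58.1 (R 4.3.3), with an intensity trend, modelled log2(FPKM + 1). Library totals were estimated from low values, of which 96.7% to 97.3% under 20 reads were whole within 0.1 read given exon length. On simulated data for Tbx21-KO against WT (10428 genes tested), the fit recovered 8.7% of 1.25-fold, 75% of 1.5-fold, 91.8% of 2-fold and 100% of 4-fold changes. It called 16 unchanged genes. Only 44 to 49 changed genes per fold were tested there, against 3315 higher and 2531 lower calls in the data. A call in the simulation thus needed a smaller unadjusted p, and its recovered shares do not carry over to the data. T cell list scaling set the geometric mean of 19 T cell genes equal. Alternatives were other pseudocounts, filters, scalings, voom, no variance trend, a replicate block and leaving out each library.

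Described in full were the immunoproteasome genes, their counterparts, Psme3, Psme4, Psmf1 and the 5 largest falls among the other called members (no other rose), plus up to 6 called genes per pathway list, of which 1 gene is counted but not reported here singly. A further motif searched is also not reported here. The members and lists were chosen with earlier results of these data known.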

Additional observations from a re-analysis of the deposited data

How the results depend on the processing

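Of the 30 members called, 17 kept their call and direction in each of the 14 fits other than the T cell list scaling in which they were tested (13 for Psmd11, which has a mean under 20 FPKM). With that scaling 34 members were higher and 0 lower, 4 and 0 of the immunoproteasome, 30 and 0 of the others, and 44 and 3 of the pathway genes (against 14 and 17), and 26 of the 28 lower members turned positive. The log2 fold changes of Psma1, Psma3, Psma4, Psma5, Psma7, Psmb10, Psmb2, Psmb3, Psmb4, Psmb6, Psmc1, Psmc3, Psmc4 and Psmc6 were then 0.31, 0.32, 0.0131, 0.28, 0.19, 0.20, 0.27, 0.29, 0.26, 0.22, 0.0741, 0.18, 0.0736 and 0.14. Those of Psmd1, Psmd11, Psmd12, Psmd13, Psmd14, Psmd2, Psmd3, Psmd6, Psme1, Psmg1, Psmg2, Psmg4, Adrm1, Vcp and Zfand2a were 0.0821, 0.13, 0.0577, 0.19, 0.28, 0.21, 0.0903, 0.11, 0.33, 0.33, 0.24, 0.11, 0.0304, 0.12 and 0.11. The cause was not tested. The median of all genes was 0.47 with that scaling, against 0.04 with the deposited values. All 28 lower members lay below the median of all genes with the T cell list scaling. Of all calls, 56.7% were higher with the deposited values, 50.8% with median-of-ratios scaling, 39.1% after quantile normalization and 94.5% with the T cell list. With no filter on low values, and at a mean of at least 20 FPKM (added after seeing the data), 1 member was higher and 0 of the others, the gene Psme4 being not called and not tested there. Without a variance trend 1 immunoproteasome gene was lower. On leaving out each library in turn, members higher ran from 1 to 2 and lower from 16 (without Tbx21-KO 1) to 29, immunoproteasome genes higher 1 to 1 and lower 1 to 2, others higher 0 to 1 and lower 15 (without Tbx21-KO 1) to 27, and pathway genes higher 8 (without Tbx21-KO 2) to 15 and lower 11 (without Tbx21-KO 1) to 17. Here the lone library of a group is assumed to vary like the others. The log2 ratio of Psmb8 to Psmb5 ran from -0.019 to 0.0621, of Psmb10 to Psmb7 from -0.1594 to 0.0047, of Psme1 to Psme3 from 0.33 to 0.40 and of Psmb9 to Psmb8 from 0.41 to 0.58. Same-numbered libraries did not deviate together (r = -0.02 across 11013 genes), and with the replicate block 2 members were higher and 29 lower. Psma8, Psmb11 and Psmg3 were under the filter, and no test of depth was made for them.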
